A study of Mus musculus with 6 samples.

Results

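The 10 chemokine genes *Cxcl1*, *Cxcl2*, *Cxcl10*, *Cxcl12*, *Cx3cl1*, *Ccl2*, *Ccl3*, *Ccl4*, *Ccl6* and *Ccl12* were followed through the cell classes of the mouse brain microvasculature, out of 32287 genes in the deposited matrices. They were taken by symbol, and each symbol matched 1 gene. The questions were which cells held the transcripts of each chemokine, and whether the level in endothelial zones, mural cells, microglia and perivascular macrophages differed between genotypes. The 3 control mice were untreated C57BL/6J males (WT), and the 3 TgApp ArcSwe mice were untreated males carrying an *App* transgene with the Arctic and Swedish mutations (ArcSwe). All 6 mice were 12 months old. A cerebral hemisphere of each mouse was digested into vessel fragments, the fragments were captured with CD31-coated beads and digested again, and the cells were sequenced as 1 library of 3' ends per mouse. Cells other than endothelium, such as microglia, came along in this capture, and whether each was attached to a vessel was not tested. The promoter of the transgene was not given in the sources used here, and no read of the human sequence was examined.

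The matrices held unique molecular identifiers (UMIs, 1 per captured transcript). Libraries held between 26436229 and 59161203 UMIs, and 44112 of 49059 barcodes were kept, 20079 from WT and 24033 from ArcSwe mice. The median depth per kept cell ran from 2922 to 5542 UMIs, and ArcSwe replicate 2 was the smallest library, with 2379 cells. Among the 43876 distinct barcodes, 235 occurred in more than 1 library. Classes were 24053 endothelial cells (3489 arterial, 16467 capillary and 1060 venous among them, without barcodes holding a *Cx3cr1* or *Aif1* UMI), 633 fenestrated endothelial cells kept apart from these, 3554 mural cells (412 pericytes and 2678 smooth muscle cells), 7101 microglia and 98 perivascular macrophages. The clusters behind these classes were formed without any chemokine or chemokine receptor gene. All 8 microglial markers, all 8 perivascular macrophage markers, all 6 pericyte markers and all 6 smooth muscle markers were highest in their own class, against 8 of 12 for arterial, 6 of 8 for capillary and 6 of 9 for venous endothelium, and no marker was at 0. Levels are given as counts per 1000000 UMIs of the class in that mouse (CPM). They were compared between classes and mice for 1 gene, not between genes, because 3' counting gives no value per length.

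Chemokines are small secreted proteins that steer leukocytes through G protein-coupled receptors. Their subfamilies, CC, CXC and CX3C, are named by the spacing of conserved cysteines. *Cxcl12* is the ligand of *Cxcr4* and of the scavenging receptor *Ackr3*, and *Cx3cl1* (fractalkine) is made as a membrane-bound ligand of *Cx3cr1*, the receptor that marks microglia. *Cxcl1* and *Cxcl2* attract neutrophils through *Cxcr2*, and *Cxcl10* is an interferon-inducible attractant of T cells through *Cxcr3*. *Ccl2* and *Ccl12* recruit monocytes through *Ccr2*, *Ccl3* and *Ccl4* attract macrophages and lymphocytes, and *Ccl6* is a rodent CC chemokine made by myeloid cells. In the brain, activated microglia and macrophages are a known source of the CC members, whereas *Cxcl12* is a known product of brain vessels.

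Several members are neighbours in the genome (GRCm38, GENCODE annotation, all protein coding). *Cxcl1* (chr5:90891241-90893115, plus strand) and *Cxcl2* (chr5:90903871-90905938, plus strand) lie 10.755 kb apart, and *Cxcl10* (chr5:92346638-92348889, minus strand) is on the same chromosome. *Ccl2* (chr11:82035571-82037453, plus strand) and *Ccl12* (chr11:82101845-82103400, plus strand) are 64.391 kb apart. *Ccl6* (chr11:83587882-83593087, minus strand) is followed by *Ccl3* (chr11:83647844-83649355, minus strand) and *Ccl4* (chr11:83662584-83664683, plus strand), with 13.228 kb between the last pair. *Cxcl12* (chr6:117168535-117181367, plus strand) and *Cx3cl1* (chr8:94772009-94782427, plus strand) stand alone. *Cxcl2* shares a run of 157 identical bases with *Cxcl3*, so reads could be placed on either gene and its counts carry that uncertainty, whereas no other member shares more than 25 bases with another chemokine. *Cxcl10*, *Ccl2* and *Ccl6* overlap genes on the opposite strand (*Art3*, *Gm17268* and *E230016K23Rik*).

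The promoters of *Cxcl1*, *Cxcl2* and *Cxcl10* are shown because each held a kappaB or interferon-response match before the start. Any relation of these matches to the levels in these data was not tested. Promoters ran from 250 bases before to 50 after the start (RefSeq table, GRCm38.p6), and distances are from that start. It lay 4, 28 and 0 bases from the GENCODE start given above for *Cxcl1*, *Cxcl2* and *Cxcl10*, and 171 bases from it for *Cx3cl1*. Both strands of the 8 member promoters in that table were searched for 3 motifs. These motifs were the kappaB consensus, found in 5.805% of 32851 promoters, the interferon-response core (GAAA, then any 2 bases, then GAAA), found in 3.44%, and the AP-1 site TGANTCA, found in 7.81%. Capitals mark the kappaB match and, near the 5′ end of the *Cxcl10* sequence, the interferon-response core. The stretches are chr5:90891159-90891198 on the plus strand for *Cxcl1*, chr5:90903787-90903826 on the plus strand for *Cxcl2* and chr5:92348968-92349117 on the minus strand for *Cxcl10*.
Cxcl1: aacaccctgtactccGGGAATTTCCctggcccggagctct
Cxcl2: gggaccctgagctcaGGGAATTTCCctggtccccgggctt
Cxcl10: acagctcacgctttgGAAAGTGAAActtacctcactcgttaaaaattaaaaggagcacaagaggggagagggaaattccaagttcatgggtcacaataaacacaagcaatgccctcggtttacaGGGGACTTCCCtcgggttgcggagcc
The kappaB match began 71 bases before the start of *Cxcl1* and 97 bases before that of *Cxcl2*, with the same 10 letters in both. In *Cxcl10*, 2 overlapping kappaB matches spanned bases 104 to 94 before the start, the interferon-response core spanned bases 213 to 204, and an AP-1 match, outside the stretch shown, spanned bases 74 to 68. The 5 other member promoters in the table, those of *Cxcl12*, *Cx3cl1*, *Ccl3*, *Ccl6* and *Ccl12*, held none of the 3 motifs in this window. *Ccl2* and *Ccl4* were not matched in it.

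Endothelial cells held most UMIs of *Cxcl12*, *Cx3cl1* and *Cxcl1*, microglia held most UMIs of the 5 CC chemokines and of *Cxcl10*, and no class held most of those of *Cxcl2*. These shares count every endothelial barcode, fenestrated cells and barcodes with a *Cx3cr1* or *Aif1* UMI included, which the class of 24053 leaves out. Of all UMIs in kept cells, endothelial barcodes gave 92.5% of the 307335 for *Cxcl12*, 91.2% of the 13371 for *Cx3cl1* and 85.7% of the 10350 for *Cxcl1*. Microglia gave 79.4% of the 14193 for *Ccl2*, 80.5% of the 69872 for *Ccl3*, 81.2% of the 182204 for *Ccl4*, 82.1% of the 11456 for *Ccl12*, 64.4% of the 2573 for *Ccl6* and 63.6% of the 17012 for *Cxcl10*. The 8849 UMIs of *Cxcl2* were divided between endothelial barcodes with 43.9%, microglia with 27.2% and perivascular macrophages with 9.36%, the latter from 98 cells. These shares reflect the number of cells as well as the level per cell, so levels per class follow.

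The order of levels was taken over the 9 classes with at least 10 cells in every mouse, and each class was compared with the next in that order by an exact two-sided permutation test that flips signs within the 6 mice. With 6 mice this test cannot go below 0.03125. Of 80 neighbouring pairs, 18 reached that value and 0 had an adjusted p under 0.05 (smallest 0.139), so the counts of mice below describe the order and are not calls. Perivascular macrophages had under 10 cells in some mice and are set beside the order, not in it.

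*Cxcl12* was a capillary gene in these libraries. Its capillary level was 3058, 3435 and 2297 CPM in the WT mice and 2573, 2584 and 1842 CPM in the ArcSwe mice, a mean of 2631 ± 560.0 CPM (SD, n = 6). The arterial level was 1241 ± 229 CPM and was the lower of the pair in 6 of 6 mice (mean log2 difference 1.08, exact permutation p = 0.0312). Fenestrated endothelium followed with 899.8 ± 215 CPM, while venous endothelium held 252 ± 20.7 CPM, with a narrow range over the mice. The zones were therefore ordered from capillary through arterial to venous in each mouse. Among the other cells, B cells held 569 ± 107 CPM, T and NK cells 259 ± 125 CPM, pericytes 185 ± 36.7 CPM and smooth muscle cells 23.8 ± 3.43 CPM. In the 98 perivascular macrophages 3 UMIs in all were found. Endothelial markers were not measured in the lymphocyte classes, so the part of endothelial RNA in their *Cxcl12* values was not tested.

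*Cx3cl1*, known best as a neuronal signal to microglia, was highest here in fenestrated and arterial endothelium. Fenestrated endothelium held 192 ± 58.9 CPM and arterial endothelium 139 ± 15 CPM, with the fenestrated value higher in 6 of 6 mice (exact permutation p = 0.0312). The arterial values were close to one another, at 132, 127 and 126 CPM in the WT mice and 138, 141 and 167 CPM in the ArcSwe mice. Venous endothelium held 106 ± 42.1 CPM and capillary endothelium 64.6 ± 4.52 CPM, an order opposite to that of *Cxcl12* for the capillary zone. Smooth muscle cells were at 4.98 ± 1.54 CPM and pericytes at 10.4 ± 7.27 CPM.

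*Cxcl1* had its highest levels in pericytes and venous endothelium. Pericytes held 513, 344 and 40.3 CPM in the WT mice and 365, 367 and 63.7 CPM in the ArcSwe mice. Venous endothelium held 283, 489 and 97.1 CPM in the WT mice and 269, 314 and 148 CPM in the ArcSwe mice. Replicate 3 of each genotype was the lowest mouse in both classes, and the classes could not be ordered, with pericytes higher in 3 of 6 mice (exact permutation p = 0.531). Venous endothelium was above capillary endothelium, at 44.4 ± 18.4 CPM, in 6 of 6 mice (mean log2 difference 2.48). Smooth muscle cells held 18.8 ± 6.00 CPM, and 0 of 98 perivascular macrophages had a UMI, which allows a share of up to 3.06% (counting error only, cells of 6 mice pooled).

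*Cxcl2* and *Cxcl10* had their highest mean over the 6 mice in microglia among the ranked classes, with venous endothelium as the vascular zone of highest level for both. For *Cxcl2*, microglia at 142 ± 141 CPM and venous endothelium at 133 ± 74.9 CPM were not ordered (microglia higher in 3 of 6 mice, exact permutation p = 0.469). Those 3 were the ArcSwe mice, with means of 266 ± 60.7 CPM in microglia and 122 ± 47.2 CPM in venous endothelium. In the WT mice the order was reversed, at 17.3 ± 6.42 and 143 ± 107 CPM, so the microglial lead in the mean came from the ArcSwe mice. Capillary endothelium held 19 ± 7.42 CPM and arterial endothelium 8.33 ± 5.97 CPM. For *Cxcl10*, microglia at 467 ± 395 CPM were above venous endothelium at 110.2 ± 79.8 CPM in 5 of 6 mice (exact permutation p = 0.0625). For both genes the SD over the 6 mice was close to the microglial mean. The exception for *Cxcl10* was WT replicate 3, whose venous level was above its microglial level.

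*Ccl2*, *Ccl3*, *Ccl4*, *Ccl6* and *Ccl12* had the highest level of the 9 ranked classes in microglia in 6 of 6 mice each. For *Ccl3*, microglia held 2328 ± 1078 CPM against 255 ± 151 CPM in T and NK cells. For *Ccl4*, which cytotoxic lymphocytes are also known to release, microglia held 6125 ± 2804 CPM against 1359 ± 685 CPM in T and NK cells and 218 ± 193 CPM in B cells. The second class was pericytes for *Ccl2*, with 43.5 ± 29.1 CPM against 434 ± 239.8 CPM in microglia, and for *Ccl12*, with 14.4 ± 19.2 CPM against 396 ± 177 CPM. *Ccl6* was at 82.2 ± 46.6 CPM in microglia and 3.15 ± 3.75 CPM in B cells. The class of highest level was the same for 10 of 10 members at the finer clustering resolution, with endothelial cells holding a *Cx3cr1* or *Aif1* UMI kept, and without microglial clusters of low ribosomal share, though the last choice raised the microglial mean of all 7 members led by microglia, to 375 CPM for *Cxcl2*, 824 for *Cxcl10*, 599 for *Ccl2*, 566 for *Ccl12*, 3530 for *Ccl3*, 9111 for *Ccl4* and 195 for *Ccl6*.

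**Figure D1:**
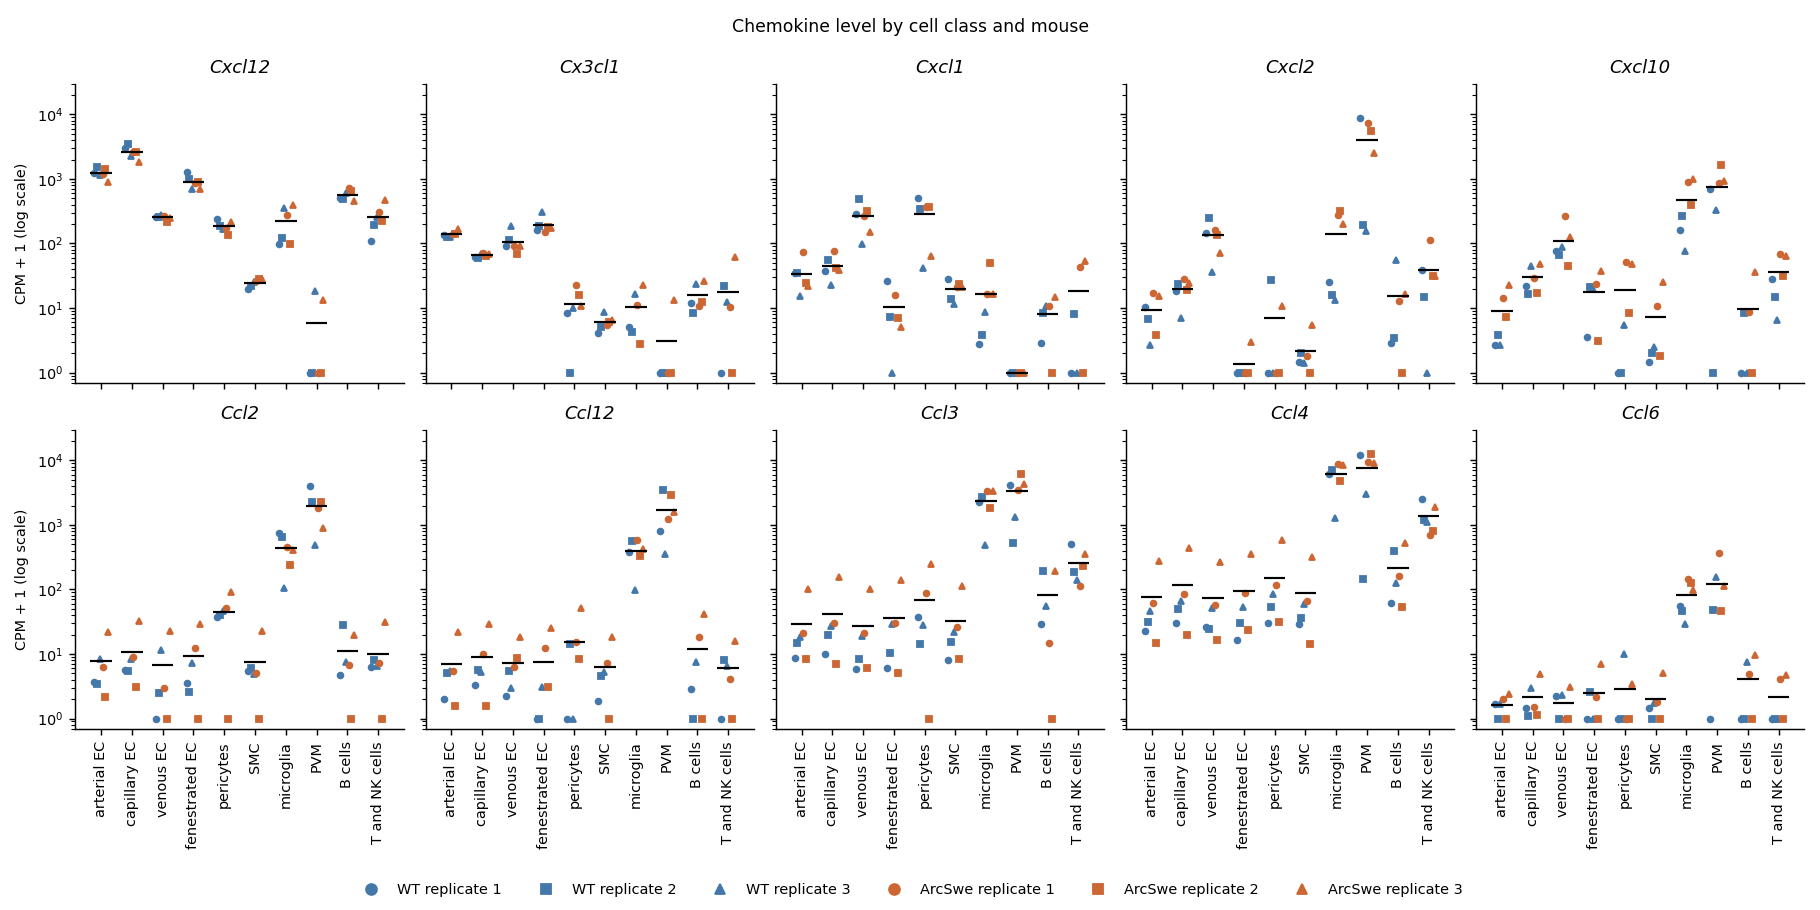
Level of each chemokine (CPM + 1, log scale) in 10 cell classes, 1 point per mouse, blue for WT and orange for ArcSwe, with the marker shape giving the replicate and a bar at the mean of 6 mice. Cxcl12 is highest in capillary endothelium (mean 2631 CPM), Ccl3 and Ccl4 in microglia (2328 and 6124.5 CPM) and perivascular macrophages, and Cxcl1 in pericytes and venous endothelium (282 and 267 CPM).

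Perivascular macrophages, the *Mrc1*- and *Cd163*-bearing macrophages of the space around vessels, also held the CC chemokines and *Cxcl10*. They held *Cxcl2* at 4064 ± 3642 CPM, above the microglial mean of 142 CPM. Microglia were thus the highest class for these members only among the ranked classes. Their values rest on 4, 7 and 40 cells in the WT mice and on 11, 3 and 33 cells in the ArcSwe mice, so no test was run. At the finer clustering these 98 cells fell into 49 cells led by *Mrc1*, F13a1 and Wfdc17 (0, 6 and 17 cells in the WT mice, 7, 1 and 18 in the ArcSwe mice), which kept the name, and 49 led by H2-Eb1, H2-Ab1 and H2-Aa, genes of antigen presentation, with *Cxcl2* among their leading genes (4, 1 and 23 cells, and 4, 2 and 15). The pooled *Cxcl2* level was 1765 CPM in the first and 3712 CPM in the second set. The second set was given no class name and held all 4 cells of WT replicate 1. Pooled *Ccl2* was 1327 and 1231 CPM and *Ccl12* 1354 and 1140 CPM, above the microglial means of 434 and 396 CPM in both sets. *Ccl6*, at 130 and 163 CPM, was also above its microglial mean of 82.2 CPM. *Ccl4* at 3611 and 9611 CPM and *Ccl3* at 2127 and 3686 CPM lay on either side of theirs, 6125 and 2328 CPM. *Cxcl10*, at 246 and 1061 CPM, lay on either side of 467 CPM. Over both sets, *Cxcl2* was 8666, 192 and 158 CPM in the WT mice and 7331, 5471 and 2566 CPM in the ArcSwe mice. WT replicate 1, with 4 cells and 175 UMIs of *Cxcl2*, was the highest of all mice, and the other WT mice were below each ArcSwe mouse. *Ccl4* was 11934, 144 and 3004 CPM in the WT mice and 9459.5, 12458 and 9269 CPM in the ArcSwe mice. *Ccl3* was 4110.1, 527 and 1314 CPM and 3532, 6068 and 4358 CPM in the same order. For both genes WT replicate 1 lay among the ArcSwe mice, and the genotypes overlapped. *Cxcl10* was 693, 0 and 333 CPM and 871, 1655 and 921 CPM. It was the 1 member in this class whose ArcSwe values all lay above the WT values over both sets together. The share of all genes that do so in this class was not computed, so this count is a description only. In the set led by *Mrc1*, the 1 cell of ArcSwe replicate 2 held no *Cxcl10* UMI. *Ccl2* ranged from 482 to 4061 CPM, *Ccl12* from 359 to 3449.8 CPM and *Ccl6* from 0 to 363 CPM over the 6 mice, with overlapping genotypes.

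Transcripts from other cells can reach a droplet as free RNA or as an attached fragment, so each chemokine was also expressed as the ratio of its level in 1 class to its level in the source class of the same mouse, beside the same ratio for the source class's 8 fixed markers. Microglial *Cxcl12* was 3.85, 4.26 and 19.4% of the endothelial level in the WT mice and 12.7, 4.34 and 26.4% in the ArcSwe mice. The summed 8 endothelial markers gave 4.01, 4.04 and 17.4% and 12.3, 4.23 and 26.4% in the same order. In each of the 6 mice the microglial *Cxcl12* ratio lay close to that of the endothelial markers, high in replicate 3 of both genotypes and low in WT replicates 1 and 2 and ArcSwe replicate 2. *Cx3cl1* spanned 2.2 to 24.2%, with the same mice high and low. The origin of the UMIs of either gene in microglial droplets was not tested. Microglial *Cxcl1* was 2.71, 3.41 and 27.6% of the endothelial level in the WT mice and 15.4, 89 and 31.4% in the ArcSwe mice, below the endothelial markers in WT replicates 1 and 2 and above them in the other 4 mice.

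In the opposite direction, the summed 8 microglial markers in endothelial cells were 1.16, 1.45 and 4.57% of the microglial level in the WT mice and 3.35, 2.54 and 6.91% in the ArcSwe mice, and none of the 8 was at 0. *Ccl3* ran from 0.333 to 4.82% and *Ccl4* from 0.391 to 4.69%. *Ccl2* spanned 0.529 to 7.32%, *Ccl12* 0.27 to 6.07% and *Ccl6* 0.0791 to 5.46%. The ratios of these 5 genes were below that of the summed markers in all mice but WT replicate 3, where *Ccl2*, *Ccl3*, *Ccl4* and *Ccl6* lay above its 4.57%, and their high values fell in the same pair of mice, WT replicate 3 and ArcSwe replicate 3. Mural cells held similar amounts of *Ccl3* and *Ccl4* as endothelial cells of their mouse, at 87.5 to 107% and 86.4 to 108% of the endothelial level. *Cxcl1* in endothelium, at 112 to 3686% of its microglial level, and *Cxcl2*, at 6.5 to 230.2%, were above the marker ratio in 6 of 6 mice. *Cxcl10*, at 3.5 to 49%, was above it in each mouse but ArcSwe replicate 3.

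**Figure D2:**
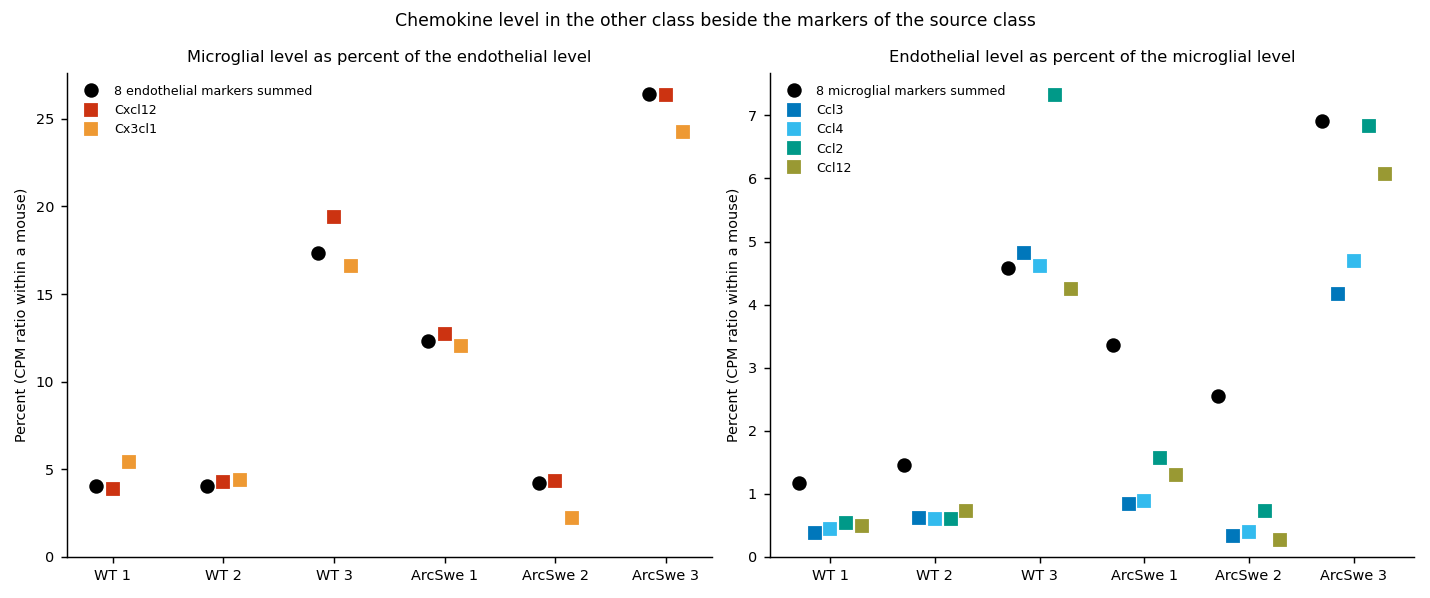
Level in one class as a percent of the level in the source class of the same mouse, for the summed 8 markers of the source class (black) and for chemokines (squares). Left, microglial Cxcl12 and Cx3cl1 beside endothelial markers, which run from 4.01 to 26.4%; right, endothelial Ccl2, Ccl3, Ccl4 and Ccl12 beside microglial markers, which run from 1.16 to 6.91%, with the highest values in replicate 3 of each genotype.

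Shares of positive cells were compared after every cell was thinned to 1000 UMIs, since the median depth was 1573 UMIs in microglia and 3735 UMIs in endothelial cells. The thinning left out 1544 of 7101 microglia and 651 of 24053 endothelial cells that were shallower. *Ccl4* was found in 71.5% of thinned microglia (79.3% unthinned) against 14.1% of endothelial cells (33.5% unthinned). *Ccl3* was found in 55.1% of microglia, *Ccl2* in 18.9%, *Ccl12* in 18.6% and *Cxcl10* in 15.4%. *Ccl6* and *Cxcl2* marked few microglia, 3.78% and 2.86%. Of the 84 perivascular macrophages deep enough, 33.3% held *Cxcl2* and 38.1% held *Ccl2*.

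Within the vessel wall, *Cxcl12* was found in 77.2% of thinned capillary cells (91.6% unthinned), 50% of arterial cells and 20.5% of venous cells. In smooth muscle cells the share was 2.68% (11.5% unthinned, median depth 5099.5 UMIs). The mural *Cxcl12* level was 1.06 to 3.1% of the endothelial level, above the 0.567 to 1.61% of the 8 endothelial markers in 6 of 6 mice. *Cxcl1* marked 11.8% of venous cells against 2.56% of capillary and 2.4% of arterial cells, and 6.17% of pericytes. *Cxcl10* was found in 7.77% of venous cells, 1.81% of capillary and 0.925% of arterial cells, and *Cxcl2* in 5.18, 1.07 and 0.694% of the same classes. In microglia the share with a UMI was 0.522% for *Cxcl1* and 0.666% for *Cx3cl1*. A share of cells with a UMI describes detection, not expression.

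In thinned microglia, 28 pairs were formed from the 8 members found in at least 2% of the cells on average. For each pair the share of cells with the second gene was compared between cells with and without the first, within each mouse. The share was higher in 6 of 6 mice for 10 pairs, but 0 pairs had an adjusted p under 0.05 by the exact permutation test (smallest 0.0729, unadjusted 0.03125, the smallest it can give). *Ccl4* was found in 82.7 ± 10.6% of cells with *Ccl3* and in 56 ± 11.7% of cells without it (SD, n = 6 mice). *Ccl12* was found in 31.1 ± 12.7% of cells with *Ccl2* and in 14.9 ± 6.62% of those without. *Ccl3* accompanied *Cxcl10* in 74.9 ± 10.2% of cells against 50.4 ± 13.8%. The reverse held for *Cxcl12*, whose microglial ratio followed the endothelial markers, as cells with it had *Ccl3* in 35.3 ± 17.7% against 55.5 ± 16%, lower in 6 of 6 mice.

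Between the genotypes, *Cxcl2* was the member that passed the test, and it did so in microglia. Its level there was 24.5, 15.2 and 12.2 CPM in the WT mice and 273, 323 and 202 CPM in the ArcSwe mice. All ArcSwe mice were far above all WT mice, and the groups did not overlap. The means were 17.3 ± 6.42 and 266 ± 60.7 CPM (SD, n = 3 each), a log2 difference of 3.97 ± 0.36 (SE, 15.7-fold) with an adjusted p of 0.0162 by the edgeR quasi-likelihood test over 11526 genes. This was 1 of the 10 members, all of which passed the low-count filter, beside 0.0347% of all genes tested in microglia. DESeq2 called 4 members there. The labels alone say that the mice are separate animals, so the p-values measure the spread between these 6 libraries.

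*Cxcl10*, *Cxcl1* and *Ccl6* also separated the genotypes in microglia without passing the adjusted test. *Cxcl10* was 160.4, 263 and 75.3 CPM in the WT mice and 909, 391 and 1005 CPM in the ArcSwe mice (log2 difference 2.25 ± 0.54, edgeR adjusted p = 0.296). *Cxcl1* was 1.77, 2.82 and 7.61 and 15.6, 49.1 and 15.4 CPM in the same order (log2 difference 2.74 ± 0.62, edgeR adjusted p = 0.255). *Ccl6* was 54.7, 45.3 and 28.2 and 144, 125 and 96.9 CPM (log2 difference 1.55 ± 0.32, edgeR adjusted p = 0.207). For each of the 3, the lowest ArcSwe mouse was above the highest WT mouse, and microglial *Cxcl1* was below the endothelial level of the same mouse throughout. The low-count filter can be passed on 1 genotype alone, so *Cxcl1*, with 204 microglial UMIs in all, may have entered the test through the ArcSwe mice. The ratio of the endothelial markers in microglia, given above, was itself higher in ArcSwe replicates 1 and 3 than in WT replicates 1 and 2, and its part in the *Cxcl1* values was not tested. Together with *Cxcl2*, 4 of 10 members were higher in ArcSwe without overlap, beside 4.99% of all genes higher and 16.7% in either direction, and 4 of 10 had an unadjusted p under 0.05, beside 7.89%. For single values of 3 against 3 mice, an exact permutation test cannot go below 0.1.

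*Ccl2*, *Ccl3*, *Ccl4* and *Ccl12* overlapped between the genotypes in microglia. *Ccl3* was 2268, 2751 and 479.8 CPM in the WT mice and 3298, 1832 and 3339.8 CPM in the ArcSwe mice (log2 difference 0.65 ± 0.63, edgeR adjusted p = 0.769). *Ccl4* was 6199.7, 7172 and 1265 CPM and 8902, 4814 and 8394 CPM (log2 difference 0.62 ± 0.66, edgeR adjusted p = 0.791). In both, WT replicate 3 was far below the 5 other mice, which overlapped. *Ccl2*, at 742, 649 and 104 CPM and 452, 242 and 412 CPM, was the 1 member with a lower fitted value in ArcSwe (log2 difference -0.41 ± 0.64, edgeR adjusted p = 0.864), and *Ccl12* gave 0.37 ± 0.58. WT replicate 3 was again the lowest mouse for both. *Cxcl12* and *Cx3cl1* gave 0.58 ± 0.55 and 1.00 ± 0.69 beside the endothelial marker ratios above. Of the 10 members, 9 had a higher and 1 a lower fitted value, with a median log2 difference of 0.82 against -0.02 over all genes tested.

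**Figure D3:**
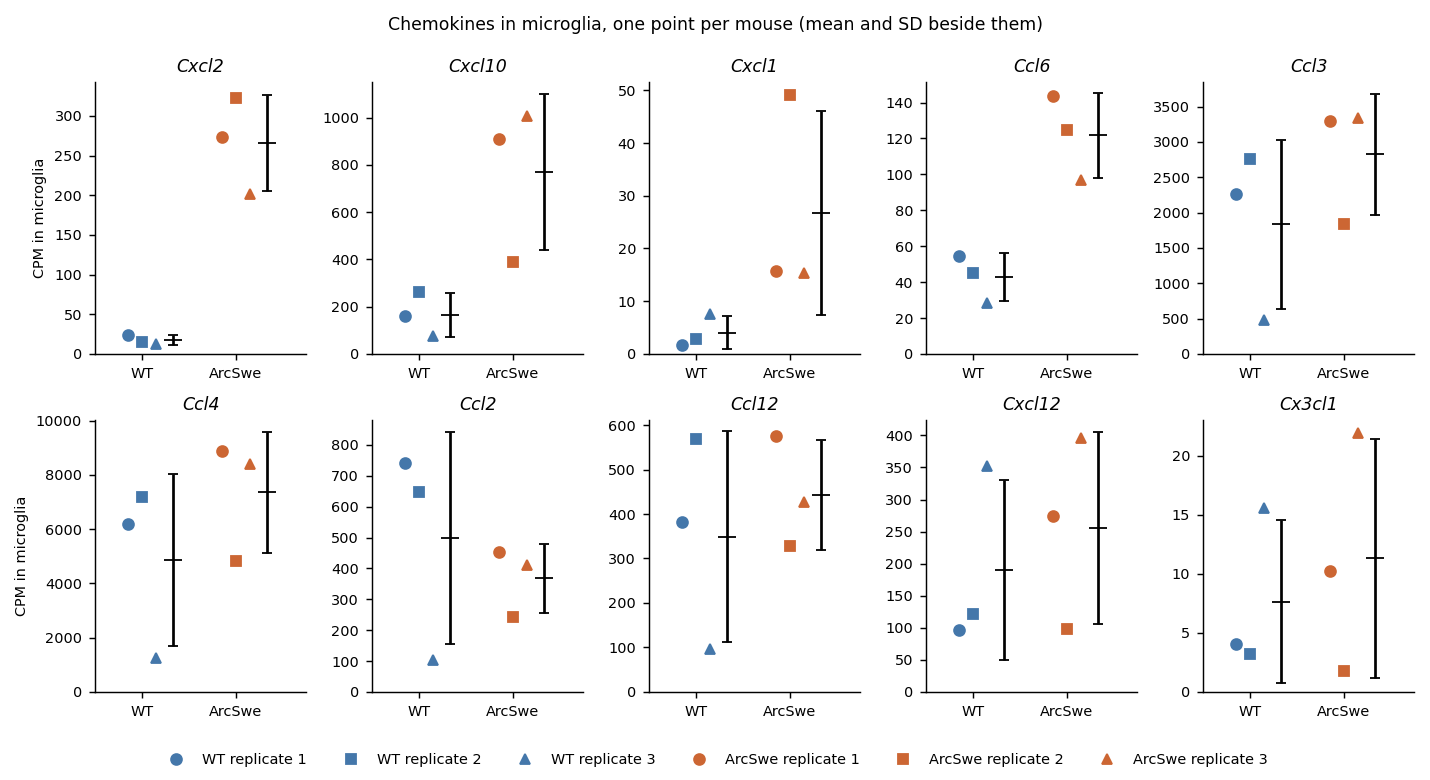
CPM of each chemokine in microglia, 1 point per mouse (blue WT, orange ArcSwe, shape for the replicate number), with the mean and SD of 3 mice beside the points and a separate linear axis from 0 for each gene. Cxcl2, Cxcl10, Cxcl1 and Ccl6 do not overlap between genotypes, whereas WT replicate 3 is the lowest mouse for Ccl2 (104 CPM), Ccl3, Ccl4 and Ccl12.

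The microglia fell into 4 clusters whose shares differed strongly between mice. M1 (3332 cells) and M3 (1469 cells) were shallow, with medians of 1233 and 1195 UMIs and ribosomal shares of 2.03 and 1.89%, and were led by Gm16337, Ptpro and Arhgap22 (M1) or by predicted transcripts (M3). M2 (1703 cells, median 6398 UMIs) was led by *Crybb1*, *Cx3cr1* and *Hpgd*, with *P2ry12*, another gene of resting microglia, among its leading genes. M4 (597 cells, median 3967 UMIs) was led by *Cst7*, with *Ifnb1*, *Clec7a*, *Tnf*, *Spp1* and *Il1b*, genes known from disease-associated and inflammatory microglia. *Cxcl10* was among the leading genes of M4 although it was left out of the clustering. M2 made up 75.9 and 69.2% of microglia in WT replicates 1 and 2, M3 made up 89.2% in WT replicate 3, and M1 made up 68.8, 89.7 and 76.1% in the ArcSwe mice. M4 was 0.48, 0.333 and 1.0% of microglia in the WT mice (5, 3 and 15 cells) and 12.0, 2.7 and 18.6% in the ArcSwe mice (131, 6 and 437 cells). Cluster makeup and genotype therefore cannot be told apart in these 6 libraries, and WT replicate 3 stood apart from the other WT mice.

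M4 held the highest pooled level of 6 of the 8 chemokines other than *Cxcl12* and *Cx3cl1*. *Cxcl2* was at 673 CPM in M4 against 25.3, 14.4 and 4.92 CPM in M1, M2 and M3. *Cxcl10* was at 2114 CPM against 247, 251 and 39.4 CPM, and *Ccl6* at 300.2 CPM against 17.4, 55.2 and 13.4 CPM. *Ccl4* reached 15667 CPM in M4 and 6969.6 CPM in M2, and *Ccl3* 6107 and 2638 CPM. *Ccl2* was at 705 CPM in M2 and 694 CPM in M4, and *Cxcl1* at 19.4 CPM in M1 and 17.1 CPM in M4. All of the 8 but *Cxcl1* had their lowest pooled level in M3. The pooled values mix mice with unlike shares of each cluster, so mouse and cluster cannot be told apart in them. By mouse, *Ccl2* was 784, 711 and 191 CPM in WT and 490.4, 299 and 725 CPM in ArcSwe mice in M2, and 1621, 0 and 206 CPM and 779, 849.6 and 652 CPM in M4.

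The few M4 cells of WT mice held the same chemokines. *Cxcl2* in M4 was 1449, 337 and 229 CPM in the WT mice and 886, 2209 and 497 CPM in the ArcSwe mice, which overlapped, with 5, 3 and 15 cells behind the WT values. *Cxcl10* in M4 was 344, 112 and 789 CPM and 2338, 1059 and 2163 CPM, with each ArcSwe mouse above each WT mouse. In M2, *Cxcl10* was 168, 287 and 148 CPM and 454, 510.4 and 635 CPM, and in M1 67.4, 107 and 64.7 CPM and 194, 264 and 338 CPM. *Cxcl10* was thus higher in each ArcSwe mouse than in each WT mouse within M1, M2 and M4 taken alone. This was not so within M3, where 3 mice had no UMI. The share of all genes without overlap was not computed within clusters, so this is a description and not a call. The edgeR adjusted p of *Cxcl10* was 0.347 in M1 alone and 0.159 in M2 alone, where ArcSwe replicate 2 had 10 cells. After thinning to 1000 UMIs, 62.2% of M4 cells held *Cxcl10*, 20.3% held *Cxcl2* and 16.2% held *Ccl6*.

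**Figure D4:**
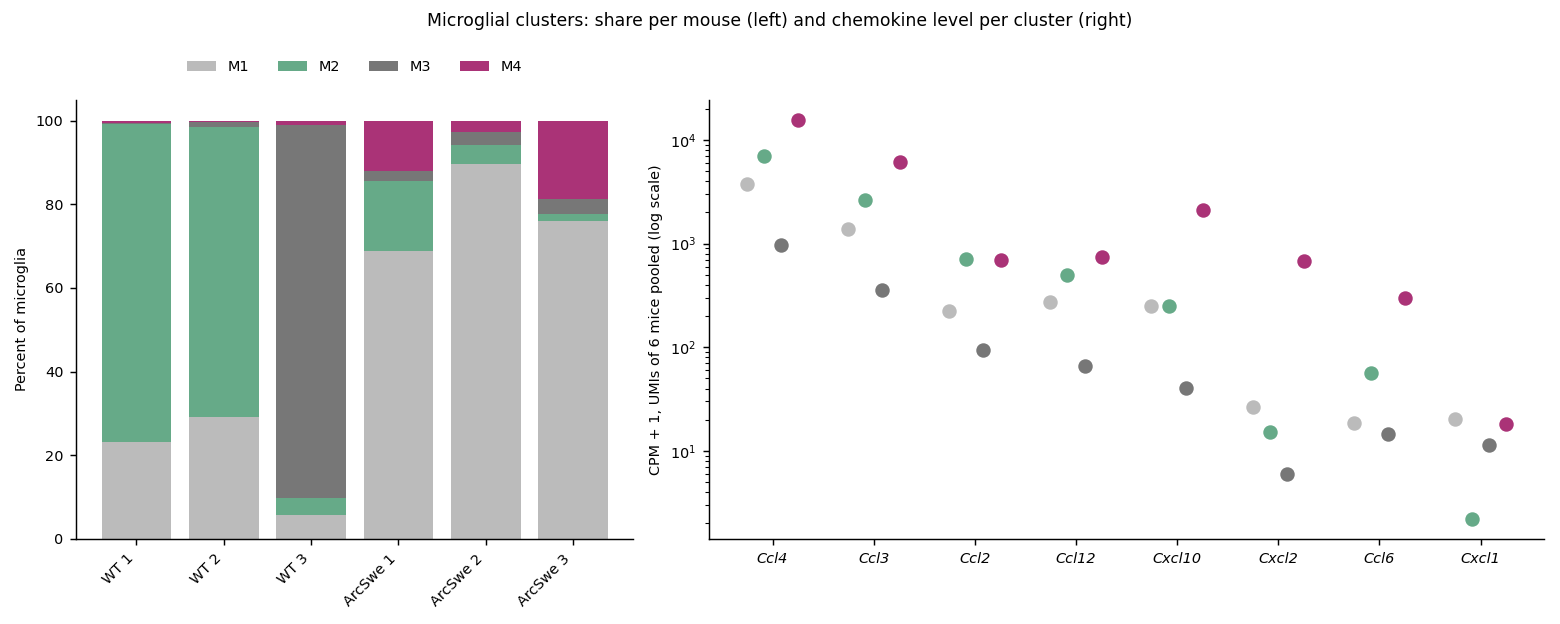
Left, percent of microglia in the clusters M1 to M4 in each mouse; right, level of 8 chemokines in each cluster (CPM + 1, log scale, UMIs of 6 mice pooled). M4, the cluster led by Cst7 and Clec7a, is 12.0, 2.7 and 18.6% of microglia in ArcSwe mice and holds the highest Cxcl2 (673 CPM), Cxcl10 (2114 CPM) and Ccl6 (300.2 CPM).

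The *Cxcl2* call depended on those clusters and on single mice. Without M4, its log2 difference in microglia was 1.23 (edgeR adjusted p = 0.597), that of *Cxcl10* 0.96 and that of *Ccl6* -0.61, while *Cxcl1* was at 2.53. In M1 alone it was 3.60 (edgeR adjusted p = 0.347). Without M1 it was 5.24 and without M3 3.57, with edgeR adjusted p of 0.00442 and 0.00705, and without M2 it was 3.07 with 0.0716. Without the clusters of low ribosomal share it was 4.79, and *Cxcl2*, *Cxcl10* and *Ccl6* passed (edgeR adjusted p = 0.00449, 0.00791 and 0.0114), beside 227 of 9921 genes. That setting kept only M2 and M4 cells, with 74 in WT replicate 3 and 16 in ArcSwe replicate 2. In ArcSwe replicate 3, 437 of its 475 kept cells were of M4, so genotype and cluster were not separated there either. Leaving out 1 mouse at a time gave 3.70 to 4.35, and the call was lost without WT replicate 2 (3.90, edgeR adjusted p = 0.0978), ArcSwe replicate 1 (3.91, 0.172) or ArcSwe replicate 3 (4.14, 0.0605). With the replicate number as a block, which paired the microglial sums, 3 members passed: *Cxcl2* (edgeR adjusted p = 0.000162), *Ccl6* (0.0184) and *Cxcl1* (0.0392), and 64 genes in all against 4 without the block.

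In endothelial cells as a whole, all 10 members passed the low-count filter and none was called by edgeR or by DESeq2, beside 0% of 13471 genes for edgeR, and 0 had an unadjusted p under 0.05, beside 4.42%. No member separated the genotypes, beside 10.8% of all genes. *Cxcl12*, the member with the most endothelial UMIs, was 2522, 2853 and 1818 CPM in the WT mice and 2150.3, 2261 and 1501 CPM in the ArcSwe mice (log2 difference -0.26 ± 0.24), and *Cx3cl1* was 81.2 ± 11.1 and 85.1 ± 5.5 CPM (0.10 ± 0.10). Replicate 3 was the lowest mouse of its genotype for *Cxcl12*, and the groups overlapped. Fitted values of *Cxcl1*, *Cxcl2* and *Cxcl10* were 0.25, 0.48 and 0.60. Those of *Ccl3* and *Ccl4* were larger, 1.89 ± 0.91 and 1.96 ± 0.89, and rested on ArcSwe replicate 3, at 139 CPM of *Ccl3* and 394 CPM of *Ccl4*, the mouse with the highest microglial marker ratio in endothelium. Without it they were 0.18 and 0.25. The median over the 10 members was 0.90 against 0.00 over all genes.

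In arterial endothelium, 9 of 10 members were tested (not *Ccl6*) and 0 were called by edgeR, beside 0.00928% of 10781 genes, while DESeq2 called 1 and 3 had an unadjusted p under 0.05, beside 4.05%. *Cxcl10* was 1.7, 2.84 and 1.64 CPM in the WT mice and 13.1, 6.17 and 21.6 CPM in the ArcSwe mice, a log2 difference of 2.90 ± 0.46 (unadjusted p = 5.48e-05, edgeR adjusted p = 0.24). All ArcSwe values were above all WT values, at low levels that rested on 190 UMIs over the 6 mice, most of them in ArcSwe mice. As the low-count filter can be passed on 1 genotype alone, arterial *Cxcl10* may have entered the test through the ArcSwe mice. DESeq2 gave it an adjusted p of 0.000233, and edgeR without ArcSwe replicate 2 gave 3.17 with 0.0303. In the same mice, arterial *Cxcl10* was 1.06 to 2.18% of the microglial *Cxcl10* level, beside 1.08 to 5.63% for the 8 microglial markers summed. Arterial *Cx3cl1* also did not overlap, with means of 129 ± 3.29 and 149 ± 15.7 CPM (0.25 ± 0.11, edgeR adjusted p = 1). The other members with an unadjusted p under 0.05 were *Ccl3* (log2 difference 1.87, edgeR adjusted p = 1) and *Ccl4* (1.94, 1), both with overlapping mice and highest in ArcSwe replicate 3, at 101 and 280.0 CPM. *Cxcl10* and *Cx3cl1* were 2 of 9 members higher without overlap, beside 2.73% of genes higher and 9.44% in either direction.

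In capillary endothelium, 9 of 10 members were tested (not *Ccl6*) and 0 were called by edgeR or DESeq2, beside 0% of 12514 genes for edgeR and 24 genes for DESeq2. Of these members 0 had an unadjusted p under 0.05, beside 5.23%, and 0 did not overlap, beside 11.9%. Capillary *Cxcl12* was 2929.9 ± 579 CPM in WT and 2333 ± 426 CPM in ArcSwe mice, a log2 difference of -0.30 ± 0.20 (edgeR adjusted p = 0.935) with overlapping mice. The other capillary members had fitted values of 0.13 for *Cx3cl1*, 0.26 for *Cxcl10*, 0.50 for *Cxcl1* and 0.62 for *Cxcl2*. In WT replicate 3, 383 of the 472 capillary *Cxcl10* UMIs came from 5 cells of a cluster led by interferon-induced genes. Without that cluster, chosen after the data were seen, capillary *Cxcl10* was 10.0, 15.6 and 8.36 CPM in the WT mice and 27.7, 12.8 and 45.4 CPM in the ArcSwe mice, which still overlapped. The CC members had larger fitted values, 1.42 for *Ccl2*, 1.84 for *Ccl12*, 1.90 for *Ccl3* and 1.98 for *Ccl4*, and ArcSwe replicate 3 was the highest mouse for the last pair at 157 and 441 CPM.

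In venous endothelium, which had 49 to 286 cells per mouse, 7 members were tested (not *Ccl2*, *Ccl6* or *Ccl12*), 0 were called by edgeR or DESeq2, beside 0% of 8787 genes, and 4 had an unadjusted p under 0.05, beside 3.55%. Venous *Cx3cl1* was 92, 112 and 187 CPM in the WT mice and 89.5, 66.9 and 90.3 CPM in the ArcSwe mice (log2 difference -0.61 ± 0.23, unadjusted p = 0.0195, edgeR adjusted p = 1.0), the 1 member with lower values without overlap, beside 5.36% of genes lower and 8.75% in either direction. Venous *Cxcl10* was 75.3, 66.3 and 88 CPM and 264, 43.7 and 124 CPM (1.04 ± 0.39), with ArcSwe replicate 2 below the WT mice. The other members with a small p were *Ccl3* (2.12, unadjusted p = 0.00782) and *Ccl4* (1.82, unadjusted p = 0.0101), both highest in ArcSwe replicate 3, at 102 and 264 CPM, and both overlapping. *Cxcl1* and *Cxcl2*, for which the venous zone led the endothelium, gave -0.25 ± 0.45 and -0.17 ± 0.52, and their ranges overlapped.

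In mural cells, 8 members were tested (not *Cxcl2* or *Ccl6*), 0 were called by edgeR or DESeq2, beside 0% of 10695 genes, 3 had an unadjusted p under 0.05, beside 4.27%, and 0 did not overlap, beside 9.82%. *Cxcl1*, which pericytes hold, was 64.5, 23.7 and 13.4 CPM in the WT mice and 36.4, 56 and 27.1 CPM in the ArcSwe mice (0.19 ± 0.47). *Cxcl12* was 35.9 ± 6.59 and 41.7 ± 4.42 CPM (0.24 ± 0.15). The 3 members with the small p-values were *Ccl3* (2.02 ± 0.73), *Ccl4* (1.85 ± 0.72) and *Ccl12* (1.70), with overlapping mice. Without ArcSwe replicate 3 the first pair were at 0.31 and 0.16, and their mural level was close to the endothelial level of the same mouse, as given above.

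Whether ArcSwe and WT differed more in microglia than in endothelium was tested by an interaction term, with both classes of each mouse in 1 fit. *Cxcl2* had a larger effect in microglia by 3.36 ± 0.51 on the log2 scale (unadjusted p = 0.000172, edgeR adjusted p = 0.692). *Cxcl1* gave 2.33 ± 0.89 (unadjusted p = 0.0306) and *Cxcl10* 1.74 ± 0.76 (unadjusted p = 0.0523), and *Ccl6* 0.46 ± 1.36. By unadjusted p under 0.05, 2 of the 10 members were counted, beside 6.94% of genes. No member and no gene passed the adjusted test, 0% of 13648 tested, so the *Cxcl2* call in microglia was not shown to differ from the endothelial value.

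**Figure D5:**
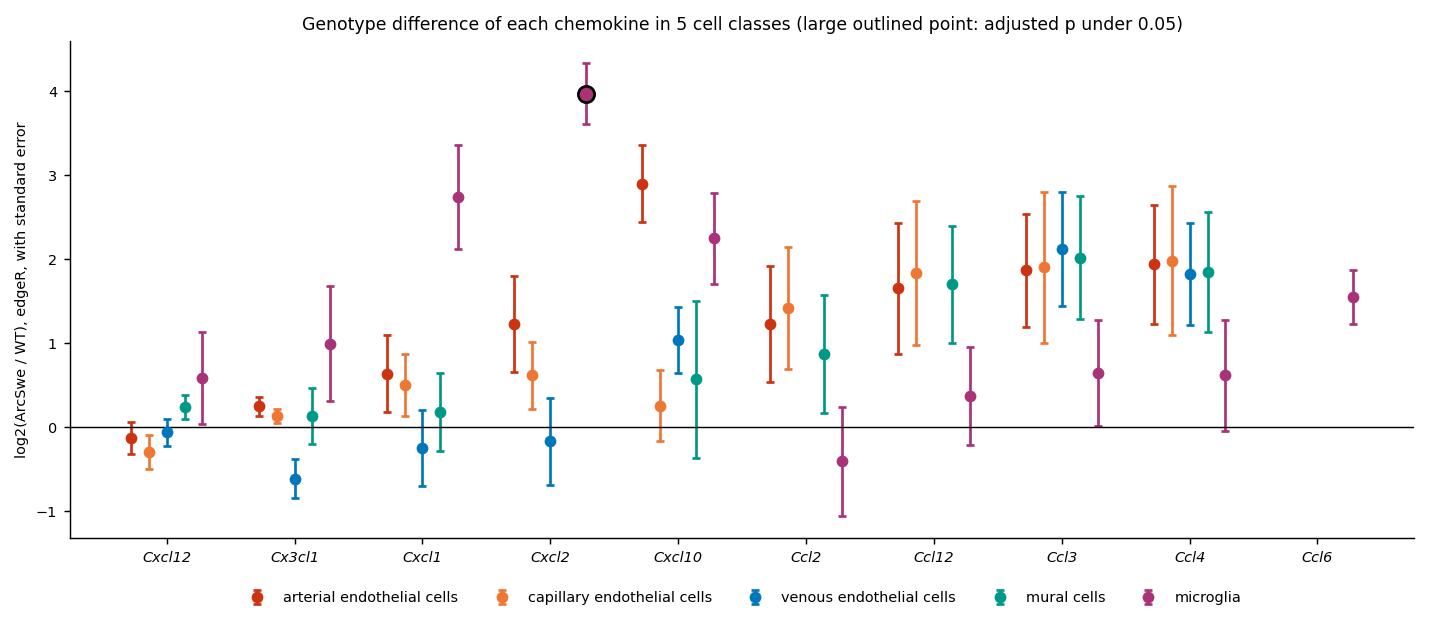
Log2 difference between ArcSwe and WT with its standard error (edgeR) for each chemokine in 3 endothelial zones, mural cells and microglia; a chemokine without a point did not pass the low-count filter in that class. The outlined point, Cxcl2 in microglia at 3.97, is the 1 with an adjusted p under 0.05, and arterial Cxcl10 is the highest vascular value at 2.90.

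Genes of the pathways around the chemokines were taken as lists. Over all genes tested in microglia, 47.9% had a higher fitted value in ArcSwe, 7.89% an unadjusted p under 0.05 and 16.7% no overlap. In that class, 23 of 24 interferon-response genes had a higher fitted value in ArcSwe, 18 with an unadjusted p under 0.05 and 7 without overlap, with a median of 1.51, and none passed the adjusted edgeR test. Of 18 NF-kappaB response genes, 16 were higher and 11 did not overlap, with a median of 0.58 and 0 calls. All 12 genes of disease-associated microglia were higher, with a median of 1.36, and 1 of them was called, *Cst7* (5.31 ± 0.52, edgeR adjusted p = 0.0189), which encodes a cystatin and also led M4. The 8 homeostatic genes were all lower, with a median of -0.45, 2 of them without overlap and 0 called. Of 20 immediate early and dissociation genes, 3 were higher, 0 had an unadjusted p under 0.05, and the median was -0.29, against -0.02 over all genes. This last list holds transcripts known to rise when tissue is digested, and its members were found in each class, with *Jun* and *Fos* at 4574 and 3978 CPM in endothelial cells, *Fos* and *Junb* at 9002 and 5611 CPM in mural cells, *Jun* and *Atf3* at 6390 and 3579 CPM in microglia, and *Jun* and *Fos* at 5997 and 3634 CPM in perivascular macrophages. The part of tissue digestion in the chemokine levels was not tested. Also named by the rule were *Klf2* in endothelial cells (3632 CPM), *Jun* in mural cells (5370 CPM), *Ctsd* in microglia (4546 CPM) and *Apoe* in perivascular macrophages (34638 CPM).

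Over all genes tested in endothelial cells, 50.1% had a higher fitted value in ArcSwe, 4.42% an unadjusted p under 0.05 and 10.8% no overlap. There, 24 of 24 interferon-response genes had a higher fitted value, 15 with an unadjusted p under 0.05 and 9 without overlap, with a median of 0.38 and 0 called by edgeR. Of 16 NF-kappaB genes tested, 14 were higher (median 0.33), and of 20 immediate early genes 18 were higher (median 0.18), with 0 called in either list. Of the microglial lists, 6 of 8 disease-associated genes (median 0.76) and 7 of 7 homeostatic genes (median 0.58) also had higher fitted values in endothelial cells, beside the microglial marker ratios above. By zone, the interferon genes higher in ArcSwe were 23 of 24 in arterial (median 0.38), 23 of 24 in capillary (median 0.40) and 20 of 21 in venous endothelium (median 0.40), with 0 called by edgeR. In mural cells, 15 of 15 NF-kappaB genes tested (median 0.43), 11 of 16 interferon genes (median 0.41) and 16 of 20 immediate early genes (median 0.12) had a higher fitted value, and 0 were called.

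Other chemokines and the receptors were sparse. Of 26 other chemokines, 8 were tested in microglia, 5 of them higher, and 2 had an unadjusted p under 0.05, *Ccl5* (3.23) and *Cxcl16* (0.76). Of 24 receptors, 8 were tested in microglia, 5 of them higher, and 2 had an unadjusted p under 0.05, *Cxcr4* (2.21) and *Ccr6* (1.10). None was called in either list by edgeR, in microglia or in endothelial cells, where 6 of 9 other chemokines and 8 of 9 receptors were higher. Some receptors of the members, chosen for mention after their values were seen, were read beside their ligands. *Cx3cr1* was at 1853 CPM in microglia and 580.0 CPM in perivascular macrophages. *Ackr3* was at 245 CPM in mural cells and 64.4 CPM in endothelial cells, beside the endothelial *Cxcl12*. *Ccr2* was at 131 CPM in perivascular macrophages.

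The genes most like each member were sought among 11315 genes over 63 values of 12 classes and 6 mice, which share libraries and depth, so the correlations are a description. *Cxcl12* was most like *Flt1* (Pearson r = 0.911), *Adgrf5* (0.903) and *Rgs12* (0.903), and *Cx3cl1* most like *Podxl* (0.906), *Kcnq1* (0.884) and *App* (0.878). *Cxcl1* was most like *Il6st* (0.80) and *Fry* (0.792). *Cxcl2* and *Cxcl10* were near one another (0.758) and each near *Pak1* (0.785 and 0.769), with *Il6ra* (0.71) for *Cxcl2* and *Cd14* (0.769) for *Cxcl10*. *Ccl3* and *Ccl4* were near one another (0.933) and each near *Fcer1g* (0.913 and 0.943), with *Tyrobp* (0.921) for *Ccl3* and *Bcl2a1b* (0.915) for *Ccl4*. *Ccl2* was most like *Cd68* (0.897), *C5ar1* (0.891) and *C1qb* (0.888), *Ccl12* most like *C5ar1* (0.852), *Ccl6* (0.848) and *Nlrp1a* (0.846), and *Ccl6* most like *Clec7a* (0.937), *Igsf6* (0.925) and *Siglece* (0.923).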

How the data were processed

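Raw UMI counts per gene and barcode, deposited by the authors, came from Cell Ranger 7.0.0 on mm10 with added *Clec7a* and human NOTCH3 sequences. Barcodes with 500 to 4500 genes and under 10% mitochondrial UMIs were kept, and no doublet caller was run. Cells were clustered with scanpy 1.11.5 (2000 variable genes, 30 components, Leiden resolution 1) and classes were named from fixed markers. Endothelial cells with a *Cx3cr1* or *Aif1* UMI were left out. Counts were summed per mouse and class and tested with edgeR 4.0.16 (quasi-likelihood, TMM, filterByExpr, genotype only, Benjamini-Hochberg at 0.05) in classes with at least 10 cells in every mouse, after ribosomal, mitochondrial, pseudogene and Rik genes were removed. DESeq2 1.42.0 was an alternative. The script was tested on simulated data. The titles number the mice 1 to 3 in each genotype and do not say what equal numbers share. In microglia, same-numbered mice deviated together for numbers 1 and 3 (r = 0.39 and 0.35) and little for number 2 (0.13). Endothelial cells gave 0.42, 0.051 and 0.38 for numbers 1, 2 and 3. The log2(CPM + 1) scale was used between classes. Named genes were all members, listed genes called in any class, the 3 listed genes of highest level per class, and the 3 most like each member, of which 1 is not reported here. Members, lists (other chemokines, chemokine receptors, NF-kappaB response, interferon response, immediate early and dissociation, disease-associated and homeostatic microglia) and tests were chosen with earlier results of these data known. Intervals and limits cover counting error only.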

Additional observations from a re-analysis of the deposited data

Results flagged for a closer look

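Some barcodes that were given no class name held more of a chemokine than any ranked class. In 27 cells led by *Mcpt8*, *Prss34*, *Hdc*, *Il4* and *Il6* (3, 5 and 0 cells in the WT mice, 10, 1 and 8 in the ArcSwe mice), *Ccl4* was at 49868 CPM and *Ccl3* at 26484 CPM, which is 8.14 and 11.4 times the microglial mean, and all 27 cells held both. In the same cells, *Ccl6* was at 2196 CPM, 26.7 times the microglial mean. *Cxcl2* was found in 22.2% of them, and its 2029 CPM, 14.3 times the microglial mean, rested on WT replicate 1, whose 3 cells were at 12448 CPM, against 53.0 to 1669 CPM in the other mice. Without that mouse it was at 830.1 CPM, 5.87 times that mean. In 86 cells led by *Cox6a2*, *Cst7*, *Tyrobp* and *Trem2* (4, 8 and 5 cells in the WT mice, 30, 2 and 37 in the ArcSwe mice), *Ccl6* was at 353 CPM, 4.29 times the microglial mean. By mouse it was 62.0, 0 and 46.2 CPM in the WT mice and 408, 379 and 434 CPM in the ArcSwe mice, beside a microglial mean of 42.7 ± 13.4 CPM over the WT mice, so this excess rested on the ArcSwe mice. UMIs of the mice were pooled for these values, and no test was run.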

How the results depend on the processing

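Over the 30 log2 differences named for single chemokines, 417 of 438 alternative values kept their direction and 21 did not. In microglia, where 1 member passed, 4 passed with DESeq2 and 4 without the low-count filter, and 3 with the replicate block. Leaving out 1 mouse gave 0 to 1. Without clusters of low ribosomal share 3 passed. Further choices were made after the data were seen. With these, 0 members passed in M1 alone, 0 in M2 alone, 3 without M1, 2 without M2 and 0 without M4. Genes called in these settings, in that order, were 1 of 6953, 5 of 7632, 124 of 10303, 28 of 9814 and 1 of 10999. In arterial endothelium, where 0 members passed, 1 passed with DESeq2, 7 without the filter and 0 to 1 when 1 mouse was left out, and venous endothelium and mural cells each had 3 without the filter. The replicate block gave 1 arterial member, *Cxcl10* (edgeR adjusted p = 0.027), and changed no other vascular call. There the replicate numbers were not taken as pairs, though 4 of 6 mice correlated best with their own number. All genes called in microglia numbered 4, against 103 with DESeq2, 101 without the filter, 64 with the block and 227 without low-ribosomal clusters, and those in arterial endothelium 1, against 10, 102 and 6 with the first 3 of these. In the classes where edgeR called 0 genes, DESeq2 called 13 in endothelial and 24 in capillary cells, and edgeR without the filter called 5 in capillary, 35 in venous and 80 in mural cells. Without 1 mouse, the microglial count ran from 0 (without ArcSwe replicate 1 or 3) to 45 (without WT replicate 3).

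Values that changed direction in microglia were -0.27 for *Cxcl2* in M2 alone, and for *Cxcl12* -0.22 at the finer clustering, -0.24 in M1 alone, -0.072 without M1 and -0.46 without M2. *Ccl2* was 0.31 without low-ribosomal clusters, 0.34 without M1 and 0.80 without M2. Without M4, *Ccl3* was -0.20, *Ccl4* -0.17, *Ccl12* -0.13 and *Ccl6* -0.61, and *Ccl6* was -0.63 in M1 alone. Leaving out 1 mouse took *Ccl12* in microglia from -0.10 to 0.93, and *Cxcl1* from -0.17 to 0.61 in endothelial cells, from -0.72 to 0.41 in venous endothelium and from -0.28 to 1.11 in mural cells. Mural *Cxcl1* was -0.13 without cells holding a *Cldn5*, *Cx3cr1* or *Aif1* UMI. The cause of these changes was not tested. Tests in perivascular macrophages, in M3 alone and in M4 alone were not run, as some mice gave fewer than 10 cells.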

Other observations

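Small classes that entered no comparison also held chemokines. In 25 fibroblasts, with none from ArcSwe replicate 2, the mean over 5 mice was 1728 ± 1592 CPM for *Cxcl12* and 1575 ± 2314 CPM for *Cxcl10*, whose highest mouse was WT replicate 2 at 5651 CPM from 6 cells. In 50 blood myeloid cells, *Cxcl2* had a mean of 4094 ± 6649 CPM and *Ccl6* of 446 ± 414 CPM. Within endothelium, 42 capillary cells formed a cluster led by *Ifit2*, *Ifit3b* and *Ifit3*, interferon-induced genes, with *Cxcl10* among its leading genes. The pooled *Cxcl10* level of those without a *Cx3cr1* or *Aif1* UMI was 4329 CPM, and they came from all 6 mice, with 383 of the 572 UMIs from 5 cells of WT replicate 3 and 28 from 15 cells of ArcSwe replicate 3.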
